A study of Mus musculus with 12 samples.

Results

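Core spliceosome proteins were taken as the genes whose mouse symbol begins with Snrp, Sf3a, Sf3b or Prpf in the array's annotation, read by a probe set that carries 1 gene symbol. Each gene was read by its brightest probe set over the 12 arrays. The rule gave 30 of the 18194 genes tested: 9 genes of Sm and other snRNP proteins, 9 genes of the SF3 complexes and 12 Prp genes. The RNA came from mouse embryonic stem (ES) cells, which renew themselves and can form any tissue of the embryo, and in which both alleles of Ronin (Thap11) were flanked by loxP sites. The knockout cells, CreERT2; Roninflox/flox, carried CreERT2 as well, the tamoxifen-activated form of Cre recombinase. The control cells, Roninflox/flox, carried none. Both received 0.25 µM tamoxifen and were collected after 1.5, 3 or 6 days, with a replating on day 4 and 2 arrays in each of the 6 groups. CreERT2 and the loss of Ronin therefore cannot be told apart, and the labels do not say whether replicates were independent cultures or how many clones each line represents. P-values therefore cover array-to-array spread within a group, possibly a technical one. Below, rose and fell compare knockout with control arrays of the same day and do not describe a change over time.

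The spliceosome removes introns from pre-mRNA. It is built from small nuclear RNAs, each of which carries a ring of Sm proteins and its own specific proteins (the snRNPs). The SF3a and SF3b complexes, parts of the U2 snRNP, hold that particle on the intron's branch point, and many Prp proteins act in the tri-snRNP that joins next or in the catalytic steps. Dividing stem cells use this machinery for nearly every message. Ronin is a zinc finger DNA-binding protein that partners with HCF-1 at promoters of genes for basic cell functions, and a 13-letter sequence, ACTACA followed by 2 open positions and TCCCA, is known from promoters that it binds.

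Thap11 itself, read by 1 probe set, had intensities of 327 and 354 in the knockout arrays of day 1.5, against 1262 and 1181 in the control arrays. On day 3 it had 110.2 and 92.7 in knockout arrays, against 1279 and 1290.1 in control arrays, and on day 6 50.6 and 51.5 in knockout arrays, against 1305 and 1382 in control arrays. The knockout and control arrays were thus far apart on each day. Whether this probe set lies in the deleted stretch was not analysed here. The summed intensity of 10 pluripotent cell markers lay between 57236 and 57496 in the knockout cells of day 6, against 56223 and 56435 in the controls, and between 55102 and 59202 over all 6 groups. That of 11 fibroblast markers was lower in knockout cells on days 1.5 and 6, at 405.1 and 433 on day 1.5, against 523 and 529 in the controls, and at 439 and 450.4 on day 6, against 534 and 618.0 in the controls, and the groups overlapped on day 3 (423 and 460.2 against 428 and 455). Col3a1 and Lum were at most 13.2 on any array, while Thy1 had 99.6 and 103 in the knockout arrays of day 6, against 161 and 197 in the control arrays, and Col1a1 and Col1a2 also fell on that day. Col6a1 rose, with 38.3 and 37.6 in the knockout arrays of day 6, against 22.5 and 24.5 in the control arrays. The summed intensity of 12 extraembryonic endoderm markers was lower in knockout cells on each day, at 869 and 909 on day 1.5, 687 and 679 on day 3 and 1034 and 1025 on day 6, against 1145 and 1136, 790 and 846, and 1386 and 1388 in the controls. Gata4, which defines that lineage, was at most 43.9, within the range of the array medians (42.4 to 44.7) or below it, but Gata6, Dab2, Cubn and Amn were above that range on day 6 and fell. Cubn had 102 and 88.3 in the knockout arrays of day 6, against 229 and 231 in the control arrays. Foxa2 rose, with 113 and 110 in the knockout arrays of day 6, against 57.4 and 53.1 in the control arrays. Sox7 had 193 and 194 in knockout arrays, against 197 and 204 in control arrays on that day. In the pluripotent list, Klf4 had 3204 and 3208 in the knockout arrays of day 6, against 4357 and 4344 in the control arrays. It was also lower on day 1.5, at 3499 and 3541 against 4656 and 4783. Of the 10 pluripotent genes, 6 had positive and 4 negative log2 fold changes on day 6. Of the endoderm list 5 genes were lower and 1 higher past the threshold on day 6, of the fibroblast list 3 were lower and 1 higher, and of the pluripotent list 2 were lower and 1 higher, where 32.5% of all genes were called (17.2% higher and 15.3% lower). The part of these shifts in the results below was not tested, and in bulk samples fewer cells of a kind and less RNA per cell cannot be told apart.

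The Ronin-associated sequence, searched on both strands, lay in 3 core spliceosome genes within the 300 bases around the start site (250 before to 50 after; RefSeq, GRCm38.p6). They were Prpf19, Prpf4 and Sf3b2, 3 of the 26 genes whose promoter was in the table, or 11.5%. The same sequence lay in 1.69% of 27025 genes with a promoter in the table and in 2.83% of the 14369 that also had a probe set with 1 symbol. With up to 1 mismatch among the 11 fixed letters the share stayed at 11.5% (the same 3 genes), against 4.97% of the measured genes. The stretches are shown because the 3 genes went 3 ways on day 6: Prpf19 rose, Prpf4 fell and Sf3b2 did not pass the threshold. Capitals mark the match, each is read on the strand on which the sequence runs forward, and 12 bases are given on either side.
Prpf19 (chr19:10895110-10895122, minus strand of a plus-strand gene, 121 bases before the start): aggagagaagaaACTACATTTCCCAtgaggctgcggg
Prpf4 (chr4:62408621-62408633, plus strand, 162 bases before the start): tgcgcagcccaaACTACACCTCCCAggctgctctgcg
Prpf4, with A6C (chr4:62408729-62408741, plus strand, 54 bases before the start): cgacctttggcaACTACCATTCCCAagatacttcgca
Sf3b2 (chr19:5295576-5295588, minus strand, as the gene, 133 bases before the start): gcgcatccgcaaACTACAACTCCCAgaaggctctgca
In the token A6C, position 6 is counted from 1 at the first letter of the sequence searched, which has A there, and the promoter has C. Distances run from the start site to the site's far end. The 3 exact matches have different letters at the open positions. The whole windows of Prpf4 and Prpf19, in the direction of the gene, show the 2 matches of Prpf4 and the single, reversed match of Prpf19.
Prpf4 window (chr4:62408533-62408832, plus strand): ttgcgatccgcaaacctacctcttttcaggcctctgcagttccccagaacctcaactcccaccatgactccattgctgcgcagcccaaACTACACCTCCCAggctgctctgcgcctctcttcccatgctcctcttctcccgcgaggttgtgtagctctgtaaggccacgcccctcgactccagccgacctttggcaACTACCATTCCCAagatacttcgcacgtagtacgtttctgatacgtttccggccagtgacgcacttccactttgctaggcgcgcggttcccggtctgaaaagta
Prpf19 window (chr19:10894981-10895280, plus strand): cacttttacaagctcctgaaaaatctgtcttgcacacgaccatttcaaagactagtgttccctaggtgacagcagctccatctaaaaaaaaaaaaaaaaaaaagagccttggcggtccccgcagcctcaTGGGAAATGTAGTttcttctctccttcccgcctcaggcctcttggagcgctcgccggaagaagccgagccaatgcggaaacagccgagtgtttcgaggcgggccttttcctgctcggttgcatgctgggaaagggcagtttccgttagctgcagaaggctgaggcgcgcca
A match is a description of letters and no evidence of binding. Among the measured genes with a promoter, 45.2% of the 407 with an exact match were lower in knockout cells on day 6 and 21.1% higher, against 14.7% lower and 17.5% higher of the 13962 without one.

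On day 1.5, 0 of the 30 genes passed the threshold in knockout against control cells (limma, Benjamini-Hochberg adjusted p under 0.05 over 18194 genes), where 9.91% of all genes did (5.93% higher and 3.98% lower). At an unadjusted p under 0.05 there were 3 of the 30, against 4296 of all 18194 genes. The log2 fold changes of the 30 genes lay between -0.14 and 0.15 with a median of -0.030, against 0.0028 over all genes. On day 3, 7 were higher and 0 lower, against 13.3% higher and 10.0% lower of all genes, with a median of 0.096 against 0.028. As a share the 7 are 23.3%, against 23.4% of all genes called in either direction. On day 6, 4 were higher and 10 lower, together 46.7%, against 32.5% of all genes (17.2% higher and 15.3% lower), with a median of -0.056 against -0.0013. The lower genes made up 33.3% of the 30. None of the 30 was among the dimmest 40% of genes, and shares among genes of similar brightness were not computed. The shares over all genes, here and below, may therefore not be like with like. No member changed 1.5-fold on any day, against 263, 841 and 1438 of all 18194 genes on days 1.5, 3 and 6. Among genes called on day 6 the median size of the log2 fold change was 0.25 for these genes and 0.39 for all genes. Over the 3 days 17 genes were called at least once and 13 never. The matching share over all genes was not computed.

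**Figure D1:**
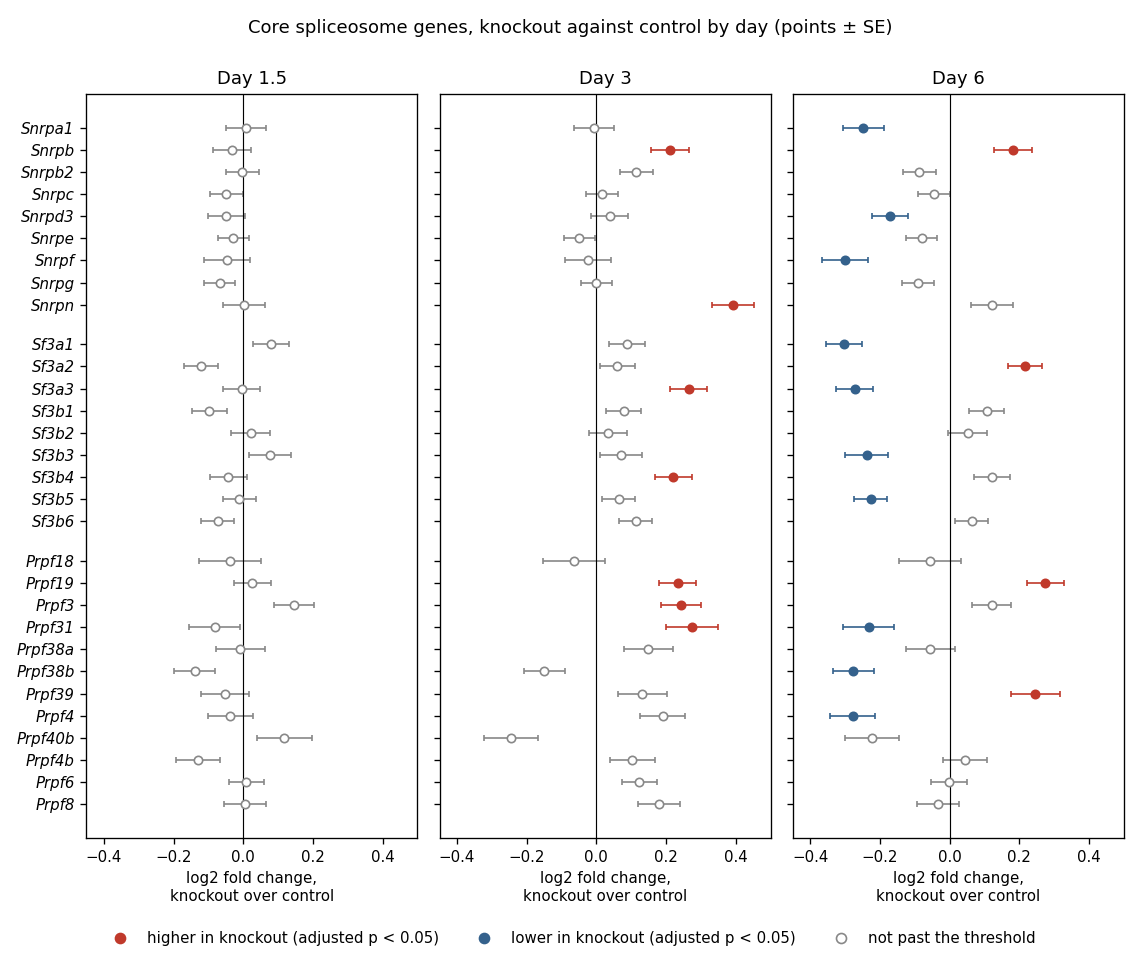
Log2 fold change of knockout over control cells (x axis) for the 30 genes (rows, in the order Sm and snRNP, SF3, Prp) on days 1.5, 3 and 6 (panels). Bars are 1 SE of the limma fit over all 12 arrays, 2 a group, and are the same for a gene on each day. Red is higher, blue lower and grey not past the threshold. No gene is coloured on day 1.5, 7 are red on day 3, and on day 6 there are 4 red and 10 blue, all between -0.30 and 0.28.

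These counts moved with the fit. With trend and robust eBayes 2 genes were called on day 1.5, 15 on day 3 and 19 on day 6, and without the dimmest 40% of genes 0, 14 and 16. The shares of all genes called under these fits were not computed, so whether other genes moved alike was not tested. Leaving out single arrays lowered the counts of days 3 and 6. The 14 calls of day 6 became 9 and 5 when knockout replicate 1 or 2 of that day was omitted, 8 when either control array was, and 7 when all probe sets of a gene were averaged. The 7 of day 3 became 3 without knockout replicate 1 of day 3, and 1 (Snrpn) when only the 4 arrays of that day entered the fit. In simulated data with 18194 genes and the design of day 6, 50 genes were given each size of change. Changes of 1.2-fold were recovered in 16% of cases and those of 1.5-fold in 66%. The real data of day 6 had 32.5% of all genes called, and no core gene was among the dimmest 40% of genes. The shares recovered may therefore not hold for the core genes, and may be too low for them. A gene that did not pass was still not shown to be unaltered.

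Among the 9 genes of Sm and snRNP proteins, 3 fell and 1 rose on day 6. The largest difference on that day was in Snrpf, an Sm ring protein, which had 3781 and 3536 in the knockout arrays of day 6, against 4498 and 4501 in the control arrays. Its arrays did not overlap (log2 fold change -0.30 ± 0.067 (SE), adjusted p = 0.0074), and its log2 fold change had been -0.046 on day 1.5 and -0.023 on day 3. Snrpa1, the U2 snRNP protein that binds the U2 RNA with Snrpb2, had 3249.9 and 3346 in the knockout arrays of day 6, against 3821 and 4006 in the control arrays (log2 fold change -0.25 ± 0.058 (SE), adjusted p = 0.0095). All 3 of its probe sets were lower on day 6, the other 2 at -0.35 and -0.29 (adjusted p = 0.0042 and 0.01 over all 45101 probe sets). Their names end in letters that mark probes shared among transcripts, so they may not be independent readings. The tested sets of 8 of the 30 genes end so: Snrpa1, Snrpb, Snrpb2, Snrpe, Snrpg, Sf3a2, Sf3b5 and Prpf19. Which other transcripts these sets read was not analysed. Snrpd3, another ring protein, had 6669.8 and 6626 in the knockout arrays of day 6, against 7445 and 7521 in the control arrays (log2 fold change -0.17 ± 0.053 (SE), adjusted p = 0.034). That is the smallest of the 14 differences called on day 6, although the arrays of its 2 groups stood apart. Snrpf was no longer called without knockout replicate 2 of day 6 (adjusted p = 0.061), and Snrpa1 was not called without control replicate 2 (0.069) or knockout replicate 1 (0.065). The call of Snrpd3 was lost without each of the 4 arrays (adjusted p 0.1, 0.13, 0.11 and 0.13).

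Snrpb, which encodes the ring proteins SmB and SmB′, rose on both later days. It had 9173 and 8459.9 in the knockout arrays of day 3, against 7476 and 7757 in the control arrays (log2 fold change 0.21 ± 0.055 (SE), adjusted p = 0.022). On day 6 it had 9240.4 and 9358 in knockout arrays, against 8131 and 8265 in control arrays (log2 fold change 0.18 ± 0.055 (SE), adjusted p = 0.03). The knockout arrays were the higher ones on both days, and on day 1.5 the log2 fold change was -0.031. Another probe set of Snrpb passed too, at 0.23 on day 3 and 0.20 on day 6 (adjusted p = 0.037 and 0.046). The call of day 3 was lost without control replicate 1 (adjusted p = 0.094) or knockout replicate 1 of that day (0.14). That of day 6 was lost without each of the 4 arrays, at adjusted p 0.13 and 0.087 without a control array and 0.098 and 0.13 without a knockout array.

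Snrpn encodes SmN, a close relative of SmB known from brain and transcribed from the paternal allele of an imprinted region together with Snurf. Its intensities were 149.7 and 144 in the knockout arrays of day 1.5, against 139.7 and 154 in the control arrays. On day 3 they were 159 and 154 in knockout arrays, against 119 and 119 in control arrays, and on day 6 145 and 139 in knockout arrays, against 130.0 and 132 in control arrays. The knockout arrays stood apart from the controls on days 3 and 6 and overlapped them on day 1.5. Only day 3 passed (log2 fold change 0.39 ± 0.059 (SE), adjusted p = 0.0015), where Snrpn had the largest difference of the 30 genes, and that call held in each of the 12 other settings and omissions of an array. The arrays carry 6 further probe sets under the joint symbols Snurf and Snrpn, outside the rule. On day 3, 4 of them were higher past the threshold over all probe sets, at 0.47, 0.47, 0.71 and 0.39, and the other 2 were at 0.35 and 0.16 and did not pass. None of the 6 passed on day 1.5 or day 6, by limma over all probe sets, where their log2 fold changes ran from -0.14 to 0.21 on day 1.5 and from -0.18 to 0.11 on day 6.

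The other 4 genes of this group, Snrpb2, Snrpc, Snrpe and Snrpg, passed on no day. The brightest, Snrpe of the Sm ring, had 14068 and 14178 in the knockout arrays of day 6, against 14783 and 15066 in the control arrays. These arrays did not overlap, yet the log2 fold change of -0.08 ± 0.044 (SE) did not pass (adjusted p = 0.22). Snrpg, also of the ring, was at -0.09 on day 6, Snrpb2 at -0.087, and Snrpc, which acts in the U1 snRNP at the start of the intron, at -0.045.

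Of the 9 SF3 genes, 4 were lower and 1 higher in knockout than in control cells on day 6, and 2 were higher on day 3. SF3a was divided on day 6: Sf3a1 and Sf3a3 fell, and Sf3a2 rose. Sf3a1, the largest subunit of SF3a, had 1430.3 and 1419.6 in the knockout arrays of day 6, against 1741 and 1775 in the control arrays (log2 fold change -0.30 ± 0.051 (SE), adjusted p = 0.0017). On day 3 it had 1488 and 1533 in knockout arrays, against 1433 and 1407 in control arrays, and on day 1.5 1648 and 1739.6 in knockout arrays, against 1567 and 1638 in control arrays. The knockout arrays were the higher ones on the earlier days, by amounts that did not pass, and the lower ones on day 6. The call was kept without each of the 4 arrays of day 6 in turn. A dimmer probe set of Sf3a1 rose on day 3 (log2 fold change 0.42, adjusted p = 0.0045), and the mean of all its probe sets did not pass on day 6 (-0.13, adjusted p = 0.23).

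Sf3a3, a zinc finger subunit of SF3a, changed sides between days 3 and 6. It had 2608 and 2486 in the knockout arrays of day 1.5, against 2578 and 2529 in the control arrays, with a log2 fold change of -0.0041. On day 3 it had 2538 and 2405 in knockout arrays, against 2107 and 2008 in control arrays (log2 fold change 0.26 ± 0.053 (SE), adjusted p = 0.0066). On day 6 it had 2223 and 2193 in knockout arrays, against 2678 and 2652 in control arrays (log2 fold change -0.27 ± 0.053 (SE), adjusted p = 0.0038). Across days, the control arrays varied more than the knockout arrays, with their lowest values on day 3. The call of day 6 held in each of the 12 other settings and omissions of an array; that of day 3 was lost without knockout replicate 1 of day 3 (adjusted p = 0.051). Its other probe set was at 0.45 on day 3 (adjusted p = 0.024) and at -0.20 on day 6, which did not pass (0.26).

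Sf3a2, the remaining SF3a subunit, had 5339 and 5421 in the knockout arrays of day 6, against 4741 and 4518 in the control arrays (log2 fold change 0.22 ± 0.049 (SE), adjusted p = 0.0084). On day 1.5 its knockout arrays had been the lower ones, at 4586 and 4721 against 5121 and 5004 in control arrays, a difference of -0.12 that did not pass. The call of day 6 was lost without control replicate 2 (adjusted p = 0.066) or knockout replicate 2 (0.055) and with the mean of its probe sets (0.11, adjusted p = 0.22).

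In SF3b, 2 of the 6 genes were lower in knockout than in control cells on day 6, and 1 was higher on day 3. Sf3b3, a large scaffold subunit that is also found in a histone acetyltransferase complex, had 2429 and 2365 in the knockout arrays of day 6, against 2916 and 2741 in the control arrays (log2 fold change -0.24 ± 0.061 (SE), adjusted p = 0.015). Sf3b5, a small subunit that packs against it, had 5251 and 5178 in the knockout arrays of day 6, against 6118 and 6085 in the control arrays (log2 fold change -0.23 ± 0.047 (SE), adjusted p = 0.0054). Both genes had the knockout arrays below the control arrays. On day 1.5 Sf3b3 had 2417 and 2457 in knockout arrays, against 2299 and 2323 in control arrays. Its level in knockout cells was thus similar on days 1.5 and 6, while that of the controls was higher on day 6. The controls of day 6 against day 1.5 were at 0.29, which did not pass (limma, adjusted p = 0.056). The call of Sf3b5 held in each of the 12 other settings and omissions of an array, while that of Sf3b3 was lost without control replicate 1 (adjusted p = 0.1) or knockout replicate 2 of day 6 (0.084) and with the mean of its probe sets (-0.053). Sf3b4, an RNA-binding subunit that contacts the intron upstream of the branch point, had 2773 and 2812 in the knockout arrays of day 3, against 2332 and 2463 in the control arrays (log2 fold change 0.22 ± 0.053 (SE), adjusted p = 0.015). On day 6 it was at 0.12, which did not pass. Its call of day 3 was lost without control replicate 1 (adjusted p = 0.073), knockout replicate 1 (0.056) or knockout replicate 2 of that day (0.068).

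Sf3b1, Sf3b2 and Sf3b6 passed on no day. Sf3b1, the subunit that encloses the branch-point adenosine and is often mutated in leukaemia, had 5485 and 5333 in the knockout arrays of day 6, against 5108 and 4940.3 in the control arrays (log2 fold change 0.11 ± 0.051 (SE), adjusted p = 0.15). Its arrays did not overlap on that day, with the knockout arrays higher. Sf3b2, 1 of the 3 genes with the Ronin-associated sequence shown above, was at 0.022, 0.033 and 0.052 on days 1.5, 3 and 6. Sf3b6, which lies at the branch point with Sf3b1, was at -0.074, 0.11 and 0.064.

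**Figure D2:**
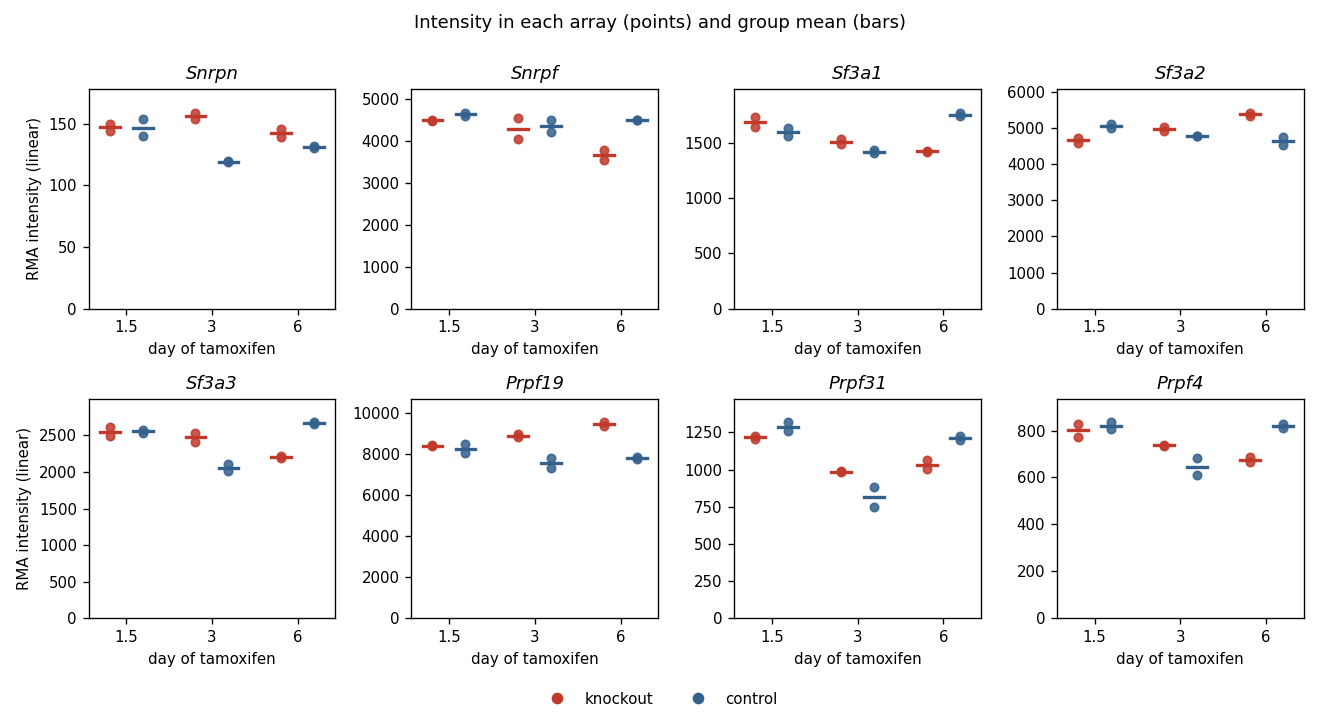
RMA intensity on a linear axis from 0 in each array (points) with group means (bars) for 8 of the genes, by day of tamoxifen, knockout red and control blue. Sf3a3 and Prpf31 have the knockout points above the control points on day 3 and below them on day 6; Snrpn has 159 and 154 in knockout arrays against 119 and 119 in control arrays on day 3.

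Of the 12 Prp genes, 3 were higher in knockout than in control cells on day 3, and 2 were higher and 3 lower on day 6. Prpf19, the ubiquitin ligase after which the Prp19 complex is named, rose on both days. It had 8441 and 8386 in the knockout arrays of day 1.5, against 8040.1 and 8486 in the control arrays. On day 3 it had 8821 and 8975 in knockout arrays, against 7315 and 7829 in control arrays (log2 fold change 0.23 ± 0.054 (SE), adjusted p = 0.013). On day 6 it had 9353 and 9548 in knockout arrays, against 7871 and 7747 in control arrays (log2 fold change 0.28 ± 0.054 (SE), adjusted p = 0.0038). The knockout arrays overlapped the controls on day 1.5 and were above them on days 3 and 6. Of its other 4 probe sets, 3 rose more, at 0.40, 0.43 and 0.36 on day 3 and 0.40, 0.44 and 0.51 on day 6. One of them had 5617 and 5601 in knockout arrays, against 4108 and 4173 in control arrays on day 6. The remaining set was dim (at most 29.3 in the arrays of day 1.5) and did not pass. The call of day 6 held in each of the 12 other settings and omissions of an array; that of day 3 was lost without control replicate 1 (adjusted p = 0.065) or knockout replicate 2 of that day (0.063).

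The U4/U6 snRNP proteins Prpf3, Prpf4 and Prpf31 differed among themselves. Prpf4, which pairs with Prpf3 and whose promoter holds both matches shown above, had 685 and 667 in the knockout arrays of day 6, against 826 and 813 in the control arrays (log2 fold change -0.28 ± 0.064 (SE), adjusted p = 0.0092). On day 3 its knockout arrays were the higher ones, at 736 and 738 against 683 and 611 in control arrays, a difference of 0.19 that did not pass (adjusted p = 0.063). The call of day 6 was lost without control replicate 1 (adjusted p = 0.053) or knockout replicate 2 (0.059) and with the mean of its probe sets (-0.078). Prpf3 had 1156 and 1259 in the knockout arrays of day 3, against 1041 and 1000.3 in the control arrays (log2 fold change 0.24 ± 0.057 (SE), adjusted p = 0.014), and its knockout arrays were also the higher ones on day 1.5, at 0.15, and on day 6, at 0.12, without passing. The call of Prpf3 was lost without control replicate 2 (adjusted p = 0.067) or knockout replicate 2 of day 3 (0.088).

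Prpf31, which holds the U4 RNA in the tri-snRNP and whose human gene is mutated in retinitis pigmentosa, gave opposite answers from its 2 probe sets. The tested set had 981 and 988 in the knockout arrays of day 3, against 882 and 751 in the control arrays (log2 fold change 0.27 ± 0.074 (SE), adjusted p = 0.026). On day 6 it had 1061 and 1005 in knockout arrays, against 1226 and 1199.8 in control arrays (log2 fold change -0.23 ± 0.074 (SE), adjusted p = 0.039). The dimmer set had 173 and 169 in knockout arrays, against 123 and 93.2 in control arrays on day 3. It had 193 and 187 in knockout arrays, against 100.1 and 113 in control arrays on day 6. That is higher on both days (0.67 and 0.84, adjusted p = 0.013 and 0.0024). The direction of Prpf31 on day 6 is therefore unsettled, and the mean of both sets was 0.31, higher. The call of the tested set on day 6 was lost without any of the 4 arrays (adjusted p 0.15 and 0.1 without a control array, 0.074 and 0.19 without a knockout array), and that of day 3 without control replicate 2 (0.12), knockout replicate 1 (0.096) or knockout replicate 2 (0.097). Of the 13 genes called on day 6 that have other probe sets, Prpf31 was the 1 with another set past the threshold in the opposite direction, and 4 had another set past it in the same direction.

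**Figure D3:**
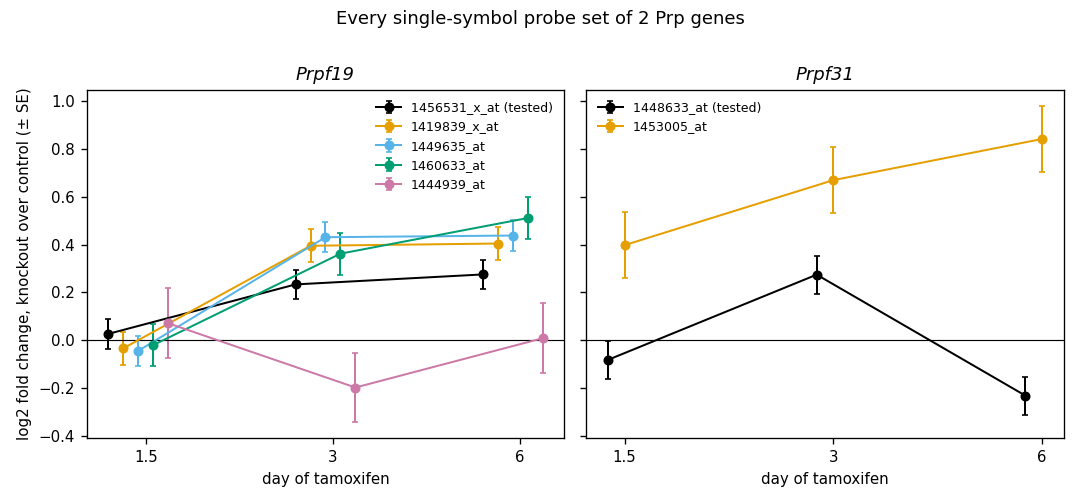
Log2 fold change of knockout over control (y axis, bars of 1 SE) by day of tamoxifen for every probe set with 1 symbol of Prpf19 (left) and Prpf31 (right), the tested set in black. Of the 5 sets of Prpf19, 4 lie between 0.23 and 0.51 on days 3 and 6, while the 2 sets of Prpf31 part on day 6, at -0.23 and 0.84.

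Prpf38b, a relative of the spliceosome activation factor Prpf38a, had 1278 and 1208 in the knockout arrays of day 6, against 1515 and 1494 in the control arrays (log2 fold change -0.28 ± 0.058 (SE), adjusted p = 0.0057). The knockout arrays were below the controls on each of the 3 days, by differences of -0.14 and -0.15 on days 1.5 and 3 that did not pass. Another of its probe sets was at -0.27 on day 6 (adjusted p = 0.026). Prpf39, a homologue of a U1 snRNP protein of yeast, had 698 and 664 in the knockout arrays of day 6, against 569 and 579 in the control arrays (log2 fold change 0.25 ± 0.07 (SE), adjusted p = 0.023). The mean of all probe sets passed for neither gene on day 6, at -0.12 for Prpf38b and 0.11 for Prpf39. Prpf38b was lost without knockout replicate 2 of day 6 (adjusted p = 0.05), and Prpf39 without any of the 4 arrays (adjusted p 0.1 and 0.073 without a control array, 0.13 and 0.052 without a knockout array).

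The other 6 Prp genes, Prpf4b, Prpf6, Prpf8, Prpf18, Prpf38a and Prpf40b, passed on no day. Prpf8, the scaffold at the catalytic centre of the U5 snRNP, had 4350.0 and 4141 in the knockout arrays of day 6, against 4229 and 4454 in the control arrays (log2 fold change -0.032 ± 0.06 (SE), adjusted p = 0.75), and these arrays overlapped. On day 3 it was at 0.18 (adjusted p = 0.06). Prpf6, which bridges U5 to U4/U6, was at 0.12 and -0.0012 on days 3 and 6, and the kinase Prpf4b at 0.10 and 0.045. Prpf40b, a homologue of the yeast U1 protein Prp40, was lower on days 3 and 6, at -0.24 and -0.22, without passing (adjusted p = 0.05 and 0.056). Prpf18, which acts in the second step of splicing, was at -0.056 on day 6, and Prpf38a at -0.055.

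Control cells had a dip on day 3. Compared with day 1.5, 16 of the 30 genes were lower and 1 higher on day 3, together 56.7%, against 27.3% of all genes (18.2% lower and 9.12% higher), and 27 of the 30 log2 fold changes were negative (median -0.16, against -0.017 over all genes). The lower genes were 53.3% of the members, 7 of 12 Prp genes, 6 of 9 SF3 genes and 3 of 9 Sm and snRNP genes. From day 3 to day 6, 10 genes were higher and 0 lower, against 27.5% of all genes in either direction (19.5% higher and 8.01% lower), with a median of 0.13 against 0.025. Between days 1.5 and 6 of the controls 0 of the 30 passed by limma, where 1.57% of all genes did (1.09% higher and 0.473% lower). At an unadjusted p under 0.05 there were 5 of the 30, against 2773 of all 18194 genes. Both comparisons with day 3 use the same 2 control arrays of that day, and their differences are not independent.

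Prpf31 had the largest dip, with 1318 and 1260.2 on day 1.5, 882 and 751 on day 3 and 1226 and 1199.8 on day 6 in the control arrays (day 3 against day 1.5 -0.66 ± 0.074 (SE), adjusted p = 0.00032; day 6 against day 3 0.58, adjusted p = 0.00074). Prpf38a, a protein that joins the spliceosome shortly before its activation, had 1780.3 and 1678, 1268 and 1217 and 1717 and 1656 in the control arrays of days 1.5, 3 and 6 (-0.48, then 0.44). In these tested sets neither gene's arrays of day 3 overlapped those of the other days. The dimmer set of Prpf31 had no such dip, with 112 and 109, 123 and 93.2 and 100.1 and 113 in the control arrays of days 1.5, 3 and 6. Prpf38a was called in 11 of the 12 other settings and omissions of an array in each comparison, with sizes down to -0.14 and 0.088. Prpf4 was at -0.35, Prpf39 at -0.33 and Sf3a3 at -0.31 for day 3 against day 1.5. For day 6 against day 3, Sf3a3 was at 0.37, Prpf4 at 0.34 and Sf3a1 at 0.31. These calls were kept without each control array in turn. The 1 gene higher on day 3 was Sf3b3, with 2299 and 2323, 2775 and 2718 and 2916 and 2741 on the 3 days (0.25 ± 0.061 (SE), adjusted p = 0.015); this call was kept without control replicate 2 of day 3 and lost without each of the other 3 control arrays, and the mean of its probe sets was 0.024. The 17 calls of day 3 against day 1.5 became 8 without either control array of day 1.5 and 10 without control replicate 1 of day 3.

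In knockout cells the same days gave a smaller shift: 18 of the 30 genes were lower on day 3 than on day 1.5, with a median of -0.046, against -0.0055 over all genes. The 2 day 3 patterns meet in the comparison of knockout with control cells, since the 7 genes called higher on day 3 were set against the controls of that day. In knockout cells themselves, Prpf31, Prpf3 and Sf3a3 had lower means on day 3 than on day 1.5. Prpf19, Sf3b4, Snrpb and Snrpn had higher ones. Prpf31 had 1207 and 1227 in the knockout arrays of day 1.5 and 981 and 988 in those of day 3. When the knockout cells of day 3 were set against the averaged controls of days 1.5 and 6, a comparison chosen after seeing the data, 3 genes were higher and 4 lower, against 25.5% of all genes in either direction (10.0% higher and 15.5% lower), with a median of -0.070 against 0.0048. Snrpn and Prpf19 were higher there too, at 0.18 and 0.15, and Sf3b3 at 0.17. Prpf31, Prpf38a, Prpf38b and Sf3a1 were lower, at -0.34, -0.31, -0.19 and -0.15. Prpf3, Sf3a3, Sf3b4 and Snrpb, called higher against the controls of day 3, were at -0.0024, -0.078, 0.025 and 0.067 and did not pass. All 4 arrays of day 3 also had higher medians (44.4 to 44.7) than the 8 of the other days (42.4 to 43.0), and the summed endoderm markers of the controls were lower on day 3 (790 and 846) than on day 1.5 (1145 and 1136) or day 6 (1386 and 1388). Culture, collection and day cannot be told apart.

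**Figure D4:**
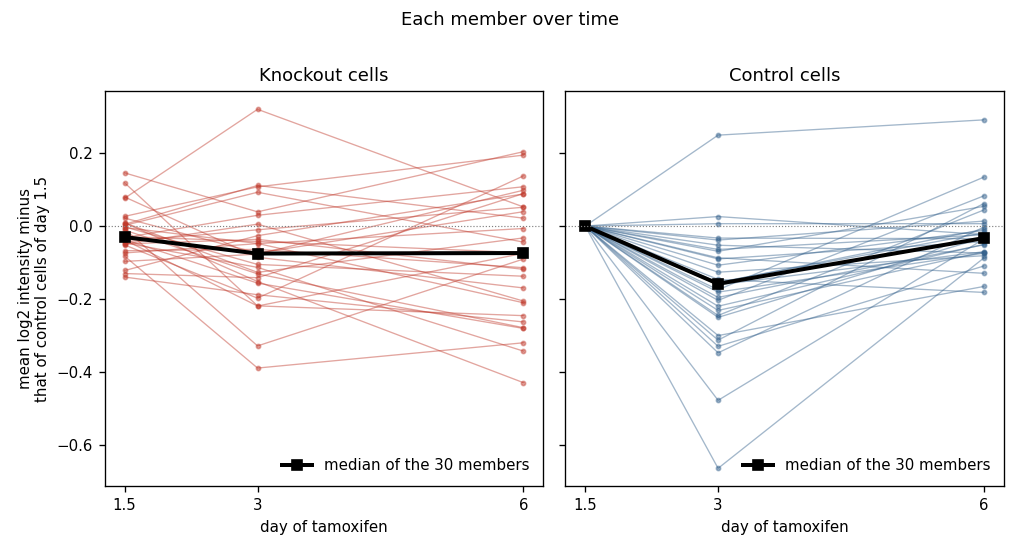
Mean log2 intensity of each of the 30 genes minus that of the control cells of day 1.5 (y axis), by day of tamoxifen, for knockout cells (left) and control cells (right); thin lines are genes and the black line is their median. The control lines bend down on day 3, with a median of -0.16 against day 1.5, and return by day 6 (-0.033), while the knockout lines spread on day 6.

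The knockout effect was itself compared between days. From day 1.5 to day 3 it became more positive for 3 genes and more negative for 0, against 7.62% and 7.34% of all genes (15.0% in either direction). From day 3 to day 6 it became more negative for 6 genes and more positive for 0, against 8.75% and 7.69% (16.4% in either direction). From day 1.5 to day 6 it became more positive for 2 and more negative for 3, against 9.32% and 10.0% (19.3% in either direction). The largest of these was Sf3a3 between days 3 and 6, at -0.54 ± 0.075 (SE) (adjusted p = 0.0021), followed by Prpf31 at -0.51, Prpf4 at -0.47 and Sf3a1 at -0.39. In each of these 4 the knockout arrays were above the controls on day 3 and below them on day 6, and the calls of all 4 were kept without each of the 8 arrays in turn. For Prpf31 and Prpf4 the means of all probe sets gave -0.17 and -0.13, which did not pass.

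Other splicing genes, outside the name patterns, were grouped in 7 lists with 111 measured genes. On day 3 the Prp19 complex and other catalytic-step proteins had 14 of 28 genes higher and 1 lower (median log2 fold change 0.18, against 0.028 over all genes), the SMN complex and Sm assembly factors, which load Sm rings onto RNA, 6 of 16 higher and 1 lower, and the LSm proteins 5 of 12 higher and 1 lower, where 13.3% of all genes were higher and 10.0% lower. These comparisons use the same control arrays of day 3, and the knockout cells of day 3 were not set against the controls of other days for these lists. In control cells 19 of 28, 11 of 16 and 5 of 12 of these genes were lower on day 3 than on day 1.5. Higher ones numbered 0, 0 and 1 (all genes: 18.2% lower and 9.12% higher). From day 3 to day 6 of the controls, 20, 10 and 3 were higher and 0 lower (all genes: 19.5% higher and 8.01% lower). In knockout against control cells on day 6 the same 3 lists had 3 higher and 4 lower, 1 higher and 6 lower, and 2 higher and 2 lower. Proteins of the minor spliceosome, which removes a rare class of introns, had 2 of 11 higher and 5 lower on day 6. Other U snRNP and tri-snRNP proteins had 1 of 17 higher and 4 lower, SR proteins with their kinases 5 of 20 higher and 4 lower, and the exon junction complex with its decay factors 2 of 7 higher and 1 lower. Of all genes 17.2% were higher and 15.3% lower on day 6. List medians on day 6 lay between -0.13 for the SMN list and 0.039 for the exon junction list.

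The largest fall in these lists was in Zmat5, a protein of the minor spliceosome's U11/U12 snRNP, read by 1 probe set. It had 465 and 494 in the knockout arrays of day 1.5, against 387 and 359 in the control arrays and was higher there (log2 fold change 0.36 ± 0.068 (SE), adjusted p = 0.012). On day 3 it had 332 and 324 in knockout arrays, against 309.6 and 279 in control arrays. On day 6 it had 140.0 and 134 in knockout arrays, against 365 and 371 in control arrays (log2 fold change -1.43 ± 0.068 (SE), adjusted p = 9.5e-07). The knockout arrays were above the controls on the first days and far below them on day 6. Of 83 list genes with a promoter in the table, 3 (3.61%) held the exact Ronin-associated sequence: Lsm10, Prmt5 and Zmat5. The 2 stretches of Zmat5 are shown since it fell more than any core gene; the exact one runs across its start site, and in the other the sequence has A13G.
Zmat5 (chr11:4704652-4704664, plus strand, beginning 4 bases before the start): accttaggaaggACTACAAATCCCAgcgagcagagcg
Zmat5, with A13G (chr11:4704564-4704576, plus strand, 92 bases before the start): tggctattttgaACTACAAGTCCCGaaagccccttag
Prmt5, which methylates Sm proteins, was at 0.29 on day 3, where it rose, and at -0.13 on day 6, and Lsm10, of the U7 snRNP, at -0.15 on day 6; neither passed on day 6.

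The other named genes of these lists changed less than Zmat5 on day 6. Gemin2 and Gemin8 of the SMN complex had 659.7 and 695 and 227 and 211 in knockout arrays, against 940.3 and 947 and 297 and 322 in control arrays (-0.48 ± 0.051 (SE) and -0.50 ± 0.088 (SE)). Phax, which exports the snRNAs before their rings are loaded, fell by 0.40. Other sets of Gemin8, at -0.25 and -0.14, did not pass. The SR protein kinase genes Srpk2 and Srpk1 fell by 0.73 and 0.50, and all 6 probe sets of Srpk2 were lower past the threshold. The other set of Srpk1, at -0.072, did not pass. Rnpc3 and Pdcd7, both of the U11/U12 snRNP like Zmat5, were at 0.57 and -0.43. Snrnp27 of the tri-snRNP fell by 0.43 and Luc7l, a U1-associated protein, by 0.32. Another set of each of these genes, and of Rnpc3, also passed in the same direction. Luc7l was already lower on day 1.5, with 1117 and 1090 in knockout arrays and 1346 and 1382 in control arrays. Its log2 fold change there was -0.31 (limma, adjusted p = 0.048 over all 45101 probe sets), and 0.037 on day 3. The helicase gene Ddx23 rose by 1.00 on a dim probe set, with 88.7 and 82 in knockout arrays and 43.3 and 42.1 in control arrays, and its other set did not pass (0.23). Cwc22 and Cwc27 fell by 0.49 and 0.44 and Rbm22 rose by 0.32. Among LSm genes Lsm11 was at -0.48 (its other set, at 0.074, did not pass), Lsm2 at -0.27 and Lsm8 at 0.19. Upf1 and Upf2, which act in nonsense-mediated decay, rose by 0.35 and 0.26, Rbm8a of the exon junction fell by 0.22, and Srsf12 was at 0.53, read below the array medians.

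**Figure D5:**
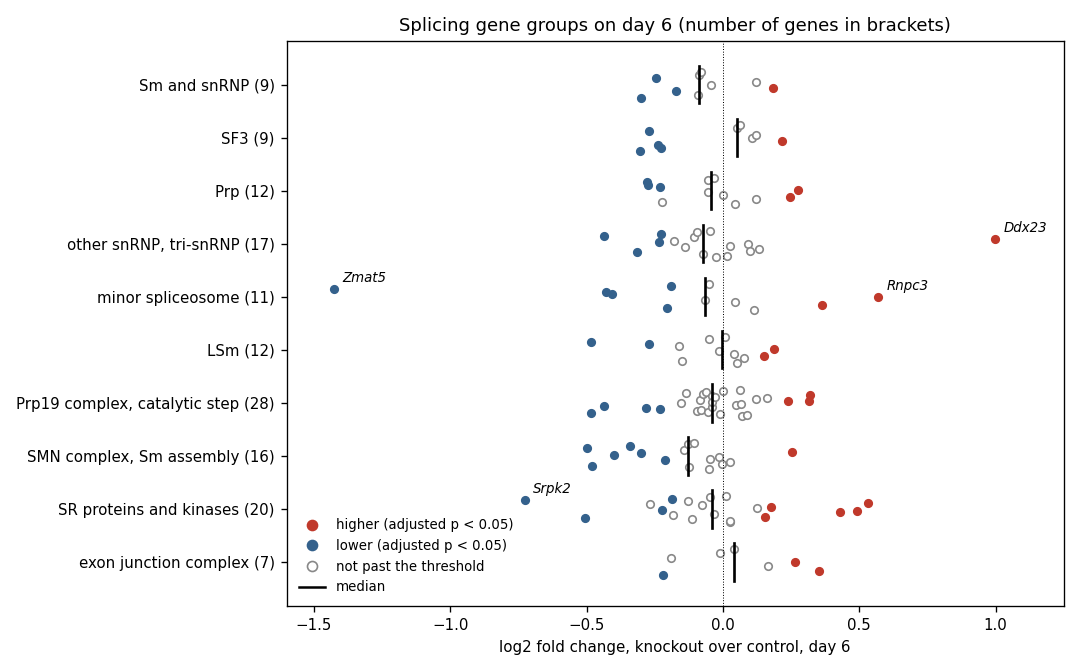
Log2 fold change of knockout over control on day 6 (x axis) for each gene (points) of the 3 core groups and the 7 other lists of splicing genes (rows, number measured in brackets), with list medians as black ticks; red is higher, blue lower and open grey not past the threshold. The core groups lie within -0.30 to 0.28, while Zmat5 is at -1.43 and Ddx23 at 1.00.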

How the data were processed

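RNA of 12 samples was measured on Affymetrix mouse arrays. The authors deposited 1 intensity per probe set and array; the submitters' processing notes name RMA, without a version. RMA corrects background, gives all arrays a common distribution and summarises probes. They lie on a linear scale (5.51 to 34993), where the design had assumed log2 values, so log2 was taken before any test. No counts exist, and the number of arrays limits the precision. Of 45101 probe sets, 34958 had 1 symbol in the platform annotation, 932 several (not used for the 30 genes) and 9211 none. The brightest per gene gave 18194 genes with no filter on dim ones.

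Tests used limma 3.58.1 (R 4.3.3): a mean per group over all 12 arrays, eBayes (6 residual and 3.04 prior degrees of freedom) and Benjamini-Hochberg adjustment over 18194 genes, with a threshold of 0.05. P-values of other probe sets were adjusted over all 45101. Per-array values are given for genes called on any day and for the brightest uncalled gene of each group, for up to 5 genes per direction between days, and for up to 3 genes of each other list with the largest change on day 6. Further probe sets, Lsm10 and Prmt5 were named after their values were seen. The members, lists and tests were chosen with earlier results of these data known. Replicate numbers were checked for pairing over 15 pairs of groups (correlation of deviations from group means -0.057 to 0.17). The 1 pair over 0.1 was that of the controls of days 1.5 and 3. Low correlations cannot show that samples were unpaired, and the main fit used no pairing. The fit was tested on simulated data drawn from the real means and spreads, where 4.04% of the genes called on day 6 were false. Alternatives were a replicate term, only the arrays compared, eBayes with trend and robust settings, a filter on the dimmest 40% of genes, averaged probe sets, centring of arrays on their median, quantile normalization, and omission of single arrays.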

Additional observations from a re-analysis of the deposited data

Results flagged for a closer look

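For 10 genes the knockout effect itself differed between days, by the limma test of that difference (adjusted over 18194 genes). The shares over all genes are given above for each pair of days. Differences are given on the log2 scale as later minus earlier day, for knockout minus control.

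From day 1.5 to day 3 the effect became more positive for Snrpn, the SmN gene (0.39, adjusted p = 0.015), Sf3a3 (0.27, adjusted p = 0.043) and Sf3b4 (0.26, adjusted p = 0.044). Snrpn was not called without knockout replicate 2 of day 1.5 or knockout replicate 1 of day 3 (adjusted p = 0.055 and 0.053). Sf3a3 was called without 2 of the 8 arrays, control replicate 1 and knockout replicate 2 of day 3. Sf3b4 was called without 1, control replicate 2 of day 3. The count of 3 genes was 0 without knockout replicate 2 of day 1.5 or knockout replicate 1 of day 3, and 1 without each other array of day 1.5.

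From day 1.5 to day 6 it became more positive for Sf3a2 (0.34, adjusted p = 0.0093) and Prpf19 (0.25, adjusted p = 0.05) and more negative for Sf3a1 (-0.38, adjusted p = 0.0062), Sf3b3 (-0.31, adjusted p = 0.032) and Sf3a3 (-0.27, adjusted p = 0.036). Sf3a1 and Sf3a2 were called without each of the 8 arrays in turn. The calls of Prpf19 and Sf3a3 were lost without each of them, and Sf3b3 was called without 1, control replicate 2 of day 6. The count of 5 genes was 2 or 3 without each array.

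From day 3 to day 6 it became more negative for Sf3a3 (-0.54), Prpf31 (-0.51, adjusted p = 0.012), Prpf4 (-0.47, adjusted p = 0.0092), Sf3a1 (-0.39, adjusted p = 0.0074), Sf3b3 (-0.31, adjusted p = 0.04) and Sf3b5 (-0.29, adjusted p = 0.019). Sf3b3 was called without 1 of the 8 arrays, knockout replicate 1 of day 3. Sf3b5 was called without 3, both control arrays and knockout replicate 1 of day 3. The controls of day 3 enter this difference and that from day 1.5 to day 3, so the 2 sets of values are not independent. No group of 2 arrays could be searched for single arrays that stand apart.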

How the results depend on the processing

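Counts of the 30 genes called moved with the fit. The shares of all genes called under each alternative below were not computed, so the counts have no such share beside them. With the replicate number as a term within each day, 3 of 7 were left on day 3, 10 of 14 on day 6, 3 of 17 for controls of day 3 against day 1.5 and 4 of 10 for day 6 against day 3, and for changes of the knockout effect 0 of 3 (day 3 minus 1.5), 1 of 5 (day 6 minus 1.5) and 4 of 6 (day 6 minus 3). As 1 term over all arrays the counts were 7, 14, 15 and 9 for the first 4 and 3, 4 and 5 for the last 3. Whether these replicate numbers pair the samples is not known. With only the arrays compared, day 3 gave 1, controls 4 (day 3 against 1.5) and 6 (day 6 against 3), and the change from day 1.5 to 3 gave 1. With trend and robust eBayes there were 2 on day 1.5, 15 on day 3, 3 for controls of day 6 against day 1.5, 16 for day 6 against 3, and 13, 15 and 12 for the 3 changes. Without the dimmest 40% of genes day 3 gave 14, controls of day 6 against day 1.5 gave 1, and the changes 9, 13 and 11. With the mean of all probe sets day 6 gave 7, controls of day 6 against day 3 gave 3, and the changes from days 1.5 and 3 to day 6 gave 2 each. Median centring gave 1 for controls of day 6 against day 1.5 and 16 for day 6 against day 3. Quantile normalization gave 11 and 6 for controls of day 3 against day 1.5 and day 6 against day 3, and 1 for the change from day 1.5 to day 3. Leaving out each array gave 0 to 0 on day 1.5, 3 to 6 on day 3, 5 to 9 on day 6, 8 to 12, 0 to 0 and 7 to 8 for controls (day 3 against 1.5, 6 against 1.5, 6 against 3), and 0 to 4, 2 to 3 and 4 to 7 for the changes; with 1 array left in a group it is assumed to vary like the others.

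Directions reversed in 4 cases: Prpf31 on day 6 with the mean of both probe sets (0.31), and on day 3 Prpf31 (-0.34), Sf3a3 (-0.078) and Prpf3 (-0.0024) against the controls of days 1.5 and 6, which were themselves higher than those of day 3. The cause was not tested in any of these cases. Calls that held under each setting run were Snrpn on day 3, Prpf19, Sf3a3 and Sf3b5 on day 6, Prpf31 and Sf3a3 for controls of day 3 against day 1.5, Sf3a3 for controls of day 6 against day 3, and Sf3a3 for the change from day 3 to day 6. None of the 30 genes was among the dimmest 40%.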

Other observations

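The Sm and snRNP genes Snrpa, Snrpd1 and Snrpd2 were read only by probe sets that name another gene or predicted gene too, which put them outside the rule. On day 6 their log2 fold changes were -0.19 for Snrpa, a U1 snRNP protein, -0.17 for Snrpd1 and -0.069 for Snrpd2, both of the Sm ring, and on day 3 they were -0.038, 0.11 and 0.058 (knockout minus control, adjusted p = 0.073, 0.067 and 0.48 on day 6, limma over all 45101 probe sets). None passed on any of the 3 days. A dim probe set of Lsm8, of the LSm ring that binds U6 RNA, was at 1.39 on day 6, against 0.19 for its bright set.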
